A study of Mus musculus with 6 samples.

Results

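A set of 9 genes of adrenergic, cyclic AMP and natriuretic peptide signalling were followed in inguinal white adipose tissue, which lies under the skin of the groin. They were taken from the deposited table of gene abundance by gene name: Adrb1, Adrb3, Adra2a, Gnas, Prkaca, Prkar2b, Pde3b, Npr1 and Npr3. All 9 were found, each in 1 row, among 57180 genes. The 6 libraries came from male wild-type (WT) mice and formed 2 groups of 3 samples: one fed the high-fat diet alone (HFD), the other the same diet supplemented with 0.5% hesperidin, a citrus flavonoid (HEP). Both groups therefore ate the high-fat diet, for 12 weeks, and a control diet that the study also describes was not analysed here. Ages and whether each sample was a separate animal are not stated in the labels, so a p-value here reflects the spread among these samples alone, which may be technical.

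In fat cells, noradrenaline from sympathetic nerves binds beta-adrenergic receptors, which act through the stimulatory G protein and adenylyl cyclase to raise cyclic AMP. Cyclic AMP releases the catalytic subunits of protein kinase A from their regulatory subunits, and the kinase acts on hormone-sensitive lipase and perilipin 1 to start lipolysis. Alpha-2 receptors act through the inhibitory G protein, and the phosphodiesterase PDE3B, which insulin activates, breaks cyclic AMP down. Natriuretic peptides from the heart can start lipolysis by a parallel route, through the receptor NPR1 and cyclic GMP, while NPR3 takes the peptides up and clears them. The data used here are RNA levels, so whether that route acts in this mouse tissue was not tested.

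Abundance was given as TPM, which divides reads by transcript length and by the library total, so levels can be set side by side between genes. Depth per library was unknown, since TPM keeps none. The tissue label was checked with 8 fat cell markers, of which Adipoq ran from 2151 to 4211 TPM and Plin1 from 446 to 971 TPM. Their geometric mean was 1613, 1836 and 1351 TPM on the high-fat diet alone (replicates 1 to 3) and 1085, 1558 and 895 TPM with hesperidin (replicates 1 to 3). The libraries also differed in the markers of other cells. Summed over 6 B or plasma cell markers, HFD replicates 1 and 2 and HEP replicate 2 had 6.68 to 8.03 TPM and the other 3 libraries 478 to 947 TPM. The 6 T cell markers summed to 6.15 to 11.2 TPM in the first set and 423 to 607 TPM in the second. Skeletal muscle markers summed to 11390 TPM in HEP replicate 2 and to 51.4 to 1325 TPM elsewhere, and liver markers to 1115 TPM in HFD replicate 1, 1691 TPM in HEP replicate 2 and 11.3 to 77.1 TPM elsewhere. Macrophage markers summed to 391 to 1329 TPM. Progenitor markers summed to 1245 to 2598 TPM, endothelial markers to 364 to 498 TPM and smooth muscle markers to 461 to 764 TPM. Brown or beige fat markers summed to 74.6 to 245 TPM, most of it Cox8b, with Ucp1 between 0.05 and 1.73 TPM. Red cell markers summed to 1334 to 2462 TPM, nerve and Schwann cell markers to 40.4 to 258 TPM and mammary epithelial markers to 1.62 to 7.63 TPM.

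Gnas stood highest and Adra2a lowest of the 9 genes, and their levels spanned 3 orders of size. Mean TPM over the 6 libraries was 790.0 for Gnas, 416 for Prkar2b, 369 for Npr3, 90.7 for Prkaca, 75.4 for Pde3b, 49.97 for Adrb3, 25.3 for Npr1, 2.45 for Adrb1 and 0.64 for Adra2a. Most steps in this order held in every library. The exceptions were Prkar2b over Npr3, Prkaca over Pde3b and Pde3b over Adrb3, each of which held in 5 of 6 libraries. Differences in level between neighbours were not tested. Npr3 was 3.69 to 4.58 times Prkaca, and Npr1 was 7.17 to 17.1 times Adrb1.

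**Figure D1:**
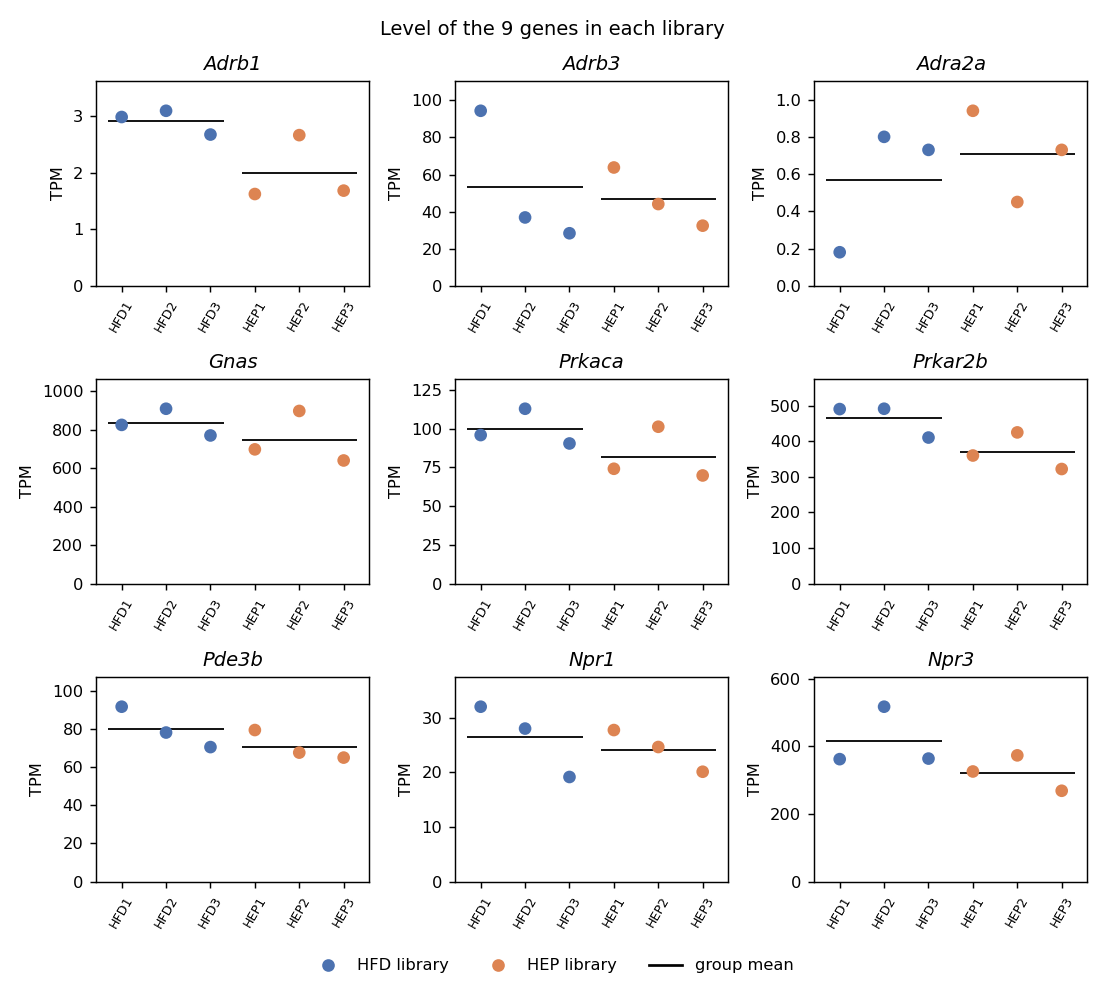
TPM of each gene in the 3 HFD and 3 HEP libraries, on axes that start at 0, with the group means as lines. The Adrb1 values of HFD lie above those of HEP by a narrow margin, and in the other 8 genes the groups overlap.

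The question set by the design was whether hesperidin changed expression on the high-fat diet, and no member passed. In limma fits of log2(TPM + 1), 0 of the 8 members that reached a mean of 1 TPM were called at an adjusted p under 0.05, against a background of 0% called higher and 0% called lower among 15446 genes tested. At an unadjusted p under 0.05 there were 0 of 8 members and 1.81% of all tested genes. All 8 had a fold change below 0, with a median of -0.24 on the log2 scale, where 41.4% of all tested genes were below 0 and their median was 0.07. Sample quality weights, another weighting of the same limma fit, also called 0 members, with adjusted p-values of 0.120 and above. All 8 lay further below 0 in that fit, with a median of -0.41, where that of all tested genes was 0.04. These signs hold for TPM as deposited. Scaling each library to the fat cell markers moved all genes upward, so that 94.0% of them and 7 of these 8 members had a fold change above 0.

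The beta-3 receptor gene Adrb3, the main beta-adrenergic receptor of mouse fat cells, varied most among the tested members. It had 94.4, 36.8 and 28.3 TPM on the high-fat diet alone (replicates 1 to 3) and 63.8, 44.1 and 32.4 TPM with hesperidin (replicates 1 to 3). Replicate 1 was the highest of each group, and the groups overlapped throughout. Its log2 fold change was -0.04 ± 0.48 (SE), with a 95% interval of -1.20 to 1.12 and an adjusted limma p of 0.986. Its sign was not stable: it was 0.47 without HFD replicate 1 and 0.19 without HEP replicate 3. An annotated antisense gene, Gm45470, overlaps Adrb3 and had 5.80, 1.15 and 1.06 TPM on the high-fat diet alone and 5.10, 1.32 and 1.26 TPM with hesperidin, high in the same replicates. The labels do not say whether the libraries kept strand, so reads of this pair cannot be told apart.

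Adrb1, which encodes the beta-1 receptor, the main beta receptor of the heart, was much lower. It had 2.98, 3.09 and 2.67 TPM on the high-fat diet alone and 1.62, 2.66 and 1.68 TPM with hesperidin. The groups did not overlap, but the highest HEP library lay only just under the lowest HFD library. It was the 1 of 8 tested members whose HEP values all lay below HFD, where 3.58% of tested genes did so and 5.46% had no overlap in either direction. Its log2 fold change was -0.41 ± 0.25 (SE), with a 95% interval of -1.01 to 0.20 and an adjusted limma p of 0.879. Both low HEP libraries were rich in lymphocyte markers, and the fold change was -0.47 within the 3 rich and -0.14 within the 3 low libraries. Each of these splits has 1 library alone in a group, HFD replicate 3 in the rich and HEP replicate 2, the highest in muscle and liver markers, in the low. The part of cell content in this difference was not tested.

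Adra2a, the alpha-2A receptor gene, was close to the floor. It had 0.18, 0.80 and 0.73 TPM on the high-fat diet alone and 0.94, 0.45 and 0.73 TPM with hesperidin. At a mean of 0.64 TPM it was under the filter and was not tested with the others. Without the filter its log2 fold change was 0.14 ± 0.23 (SE), at an adjusted limma p of 0.891 over 30599 genes.

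Ratios within a library do not depend on its total. Adrb3 was 31.7, 11.9 and 10.6 times Adrb1 on the high-fat diet alone and 39.4, 16.6 and 19.3 times with hesperidin. It was 524, 46.0 and 38.8 times Adra2a on the high-fat diet alone and 67.9, 97.9 and 44.4 times with hesperidin, where the highest ratio rests on an Adra2a value of 0.18 TPM. Neither ratio separated the groups, and exact two-sided permutation tests gave p = 0.50 for Adrb3 to Adrb1 and p = 0.90 for Adrb3 to Adra2a. Adjusted over the 4 ratios compared both were 0.90, and 3 samples against 3 cannot give a p under 0.1.

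Downstream of the receptors, Gnas encodes the alpha subunit of the stimulatory G protein and was the most abundant member. It had 825, 909 and 770.2 TPM on the high-fat diet alone and 698, 898 and 640.2 TPM with hesperidin. HEP replicate 2 matched the HFD libraries, and the other HEP libraries lay below all of them. The log2 fold change was -0.18 ± 0.19 (SE), with a 95% interval of -0.63 to 0.28 and an adjusted limma p of 0.879. Gnas is an imprinted locus with several alternative first exons and protein products, which a single value per gene does not separate. Its antisense partner Nespas stayed at 0.03 to 0.11 TPM.

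The protein kinase A genes had a similar order of libraries. Prkar2b, the type II-beta regulatory subunit that is characteristic of fat and brain, had 490.1, 491 and 410.2 TPM on the high-fat diet alone and 359.8, 425 and 322 TPM with hesperidin. Prkaca, the main catalytic subunit, had 95.9, 113 and 90.4 TPM on the high-fat diet alone and 74.1, 101 and 69.8 TPM with hesperidin. In both genes HEP replicates 1 and 3 lay below every HFD library and HEP replicate 2 above HFD replicate 3. The log2 fold change was -0.33 ± 0.17 (SE) for Prkar2b, with a 95% interval of -0.74 to 0.07, and -0.30 ± 0.19 (SE) for Prkaca, with an interval of -0.75 to 0.16. Both had an adjusted limma p of 0.879. The ratio of Prkar2b to Prkaca was the steadiest of the 4, at 5.11, 4.35 and 4.54 on the high-fat diet alone and 4.85, 4.19 and 4.61 with hesperidin. Its exact two-sided permutation p was 0.80.

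Pde3b, the phosphodiesterase that carries the antilipolytic action of insulin, followed another order. It had 91.6, 78.1 and 70.5 TPM on the high-fat diet alone and 79.4, 67.6 and 65.0 TPM with hesperidin. Replicate 1 was highest in each group, and HEP replicate 1 exceeded HFD replicates 2 and 3. The log2 fold change was -0.18 ± 0.16 (SE), with a 95% interval of -0.56 to 0.21 and an adjusted limma p of 0.879.

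Of the natriuretic peptide receptors, the clearance receptor gene Npr3 far exceeded the signalling receptor gene Npr1. Npr3 had 362, 517 and 364 TPM on the high-fat diet alone and 326, 373 and 269 TPM with hesperidin. HFD replicate 2 stood above the other 5 libraries. Npr1, the guanylyl cyclase that binds atrial natriuretic peptide, had 32.0, 28.0 and 19.1 TPM on the high-fat diet alone and 27.7, 24.6 and 20.1 TPM with hesperidin. Its lowest value was in HFD and the groups overlapped. The log2 fold change was -0.35 ± 0.21 (SE) for Npr3, with a 95% interval of -0.86 to 0.16 and an adjusted limma p of 0.879. It was -0.10 ± 0.23 (SE) for Npr1, with an interval of -0.67 to 0.46 and an adjusted limma p of 0.918. The ratio of Npr1 to Npr3 was 0.0883, 0.0541 and 0.0526 on the high-fat diet alone and 0.0851, 0.0659 and 0.0748 with hesperidin, with an exact two-sided permutation p of 0.40. A divergent noncoding gene, Gm5144, overlaps Npr3 on the opposite strand and had 14.4 to 22.2 TPM, with its highest value in the same library as Npr3.

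**Figure D2:**
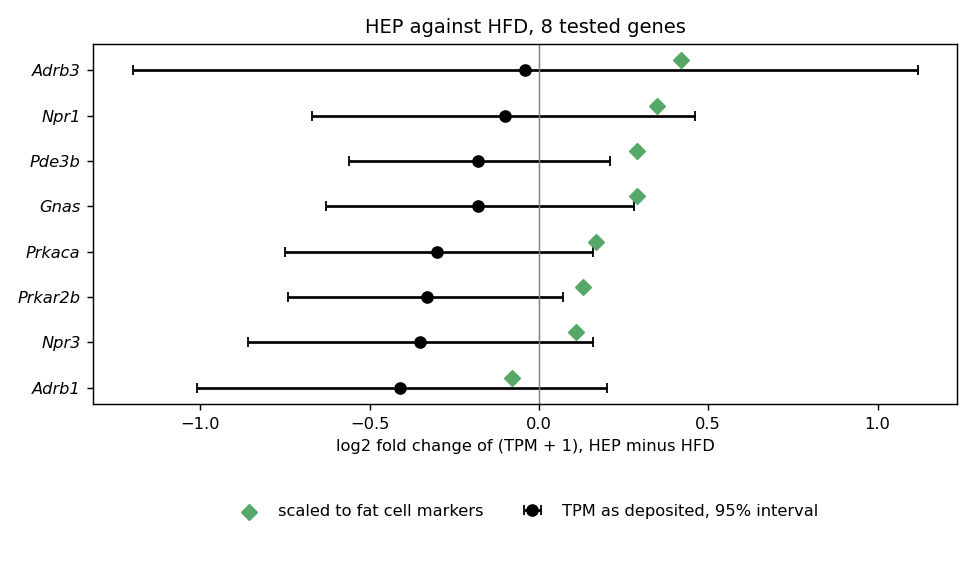
Log2 fold change of (TPM + 1), HEP minus HFD, for the 8 tested members, as black points with 95% limma intervals on TPM as deposited, and as green diamonds after each library was scaled to its fat cell markers. All 8 intervals cross 0, and the diamonds lie to the right of the points, as scaling moved the median of all tested genes from 0.07 to 0.48.

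Several members were high or low in the same libraries as the fat cell markers. HEP replicates 1 and 3 were lowest in these markers, at 1085 and 895 TPM. HEP replicate 2, at 1558 TPM, lay above HFD replicate 3, at 1351 TPM. The markers thus differed in part with diet, and the part of diet in this likeness was not tested. In this bulk tissue, fewer fat cells and less RNA per fat cell cannot be told apart. The highest library exceeded the lowest by 1.92 times for Npr3, 1.91 for Adrb1, 1.62 for Prkaca and 1.53 for Prkar2b. Divided by the geometric mean of the fat cell markers, the same spans were 1.34, 1.32, 1.31 and 1.34. For Adrb3 the span was 3.33 before and 2.93 after the division. For Npr1 it was 1.67 and 1.80, for Pde3b 1.41 and 1.72, and for Gnas 1.42 and 1.45, so these 3 were no steadier per fat cell marker than per library. Per 1000 TPM of the marker mean, Gnas had 512, 495 and 569.9 on the high-fat diet alone and 644, 576 and 716 with hesperidin. On that scale the HEP values of Gnas lay just above those of HFD, and in the other 8 genes the groups overlapped. Of all tested genes 9.44% lay wholly above on that scale and 0.291% wholly below. Gnas is expressed in many cell types, and the part of cell content in this ratio was not tested.

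**Figure D3:**
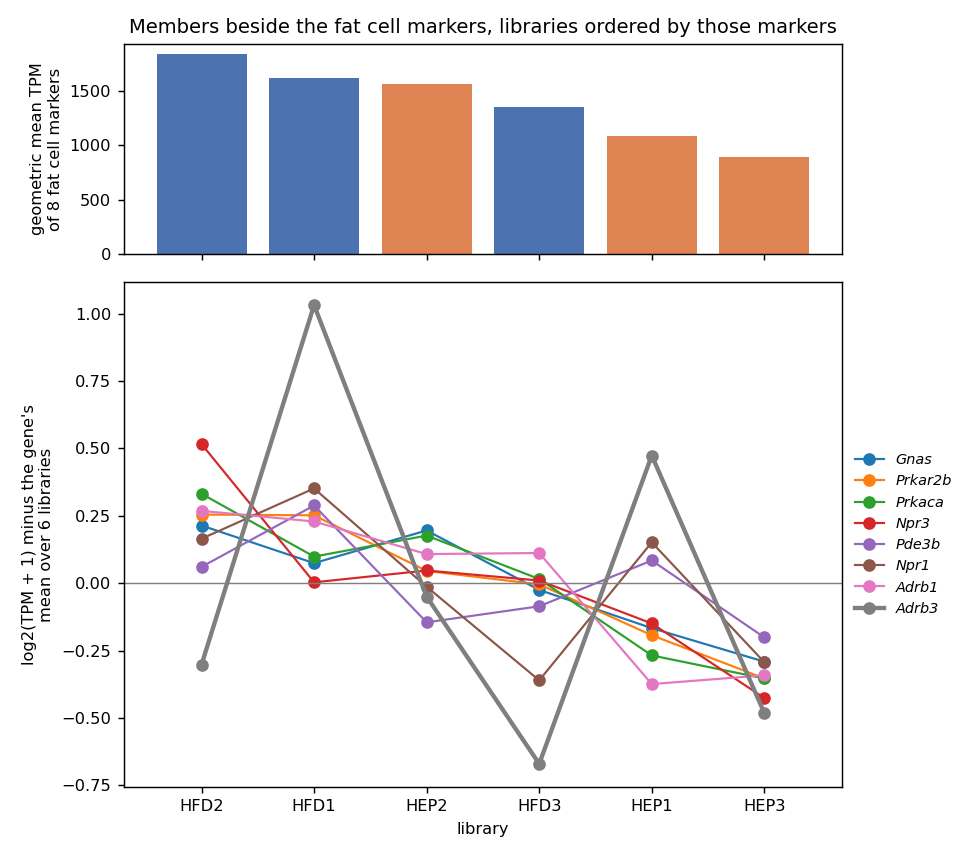
Upper panel, geometric mean TPM of 8 fat cell markers in each library, HFD in blue and HEP in orange, in falling order. Lower panel, log2(TPM + 1) of each tested member minus its mean over the 6 libraries, where Gnas, Prkar2b, Prkaca, Npr3 and Adrb1 are lowest in the 2 libraries at the right while Adrb3 peaks in HFD replicate 1 and HEP replicate 1.

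Scaled to the fat cell markers, the median log2 fold change of all tested genes moved from 0.07 to 0.48, a shift of 0.41. The members' median moved from -0.24 to 0.23. Scaling divides every gene of a library by the same factor, so it moves all genes by a similar amount. The members' median therefore lay below that of all genes on both scales by construction, which is no separate result. No member was called after scaling. The fold changes were 0.42 for Adrb3, 0.35 for Npr1, 0.29 for Gnas and for Pde3b, 0.17 for Prkaca, 0.13 for Prkar2b, 0.11 for Npr3 and -0.08 for Adrb1. Cell content moved with the diet groups in part, since 2 of 3 HEP libraries and 1 of 3 HFD libraries were rich in lymphocyte markers. Its share in the members' differences was not tested.

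The members' place in their families also varied with the libraries. Adrb3 made up 81.7%, 61.6% and 55.1% of the summed TPM of 9 adrenergic receptor genes in HFD and 71.8%, 67.0% and 60.8% with hesperidin. Prkaca held 79.8%, 77.9% and 68.6% of the TPM of the 2 catalytic subunit genes in HFD and 59.1%, 79.7% and 57.9% with hesperidin. Its lower shares all fell in libraries rich in lymphocyte markers, where Prkacb, the other catalytic subunit, had 41.4 to 51.4 TPM against 24.3 to 32.1 TPM in the rest. Prkar2b made up 66.5% to 78.3% of the 4 regulatory subunit genes, with the lowest shares in HEP replicates 1 and 3. Summed over all subunits, regulatory TPM was 4.02 to 5.21 times catalytic TPM. Gnas held 56.5% to 66.2% of the TPM of 6 genes for stimulatory and inhibitory alpha subunits.

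Pde3b was the most abundant of 18 phosphodiesterase genes, with 25.7% to 33.6% of their TPM, followed by Pde2a, which cyclic GMP activates, with 21.3% to 25.6%. Npr3 held 82.5% to 88.8% of the TPM of the 3 natriuretic peptide receptor genes. Npr2, the receptor for C-type natriuretic peptide, held 6.36% to 10.2% and Npr1 4.64% to 7.28%. These shares are descriptions with no test, and in the families plotted the groups overlapped.

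**Figure D4:**
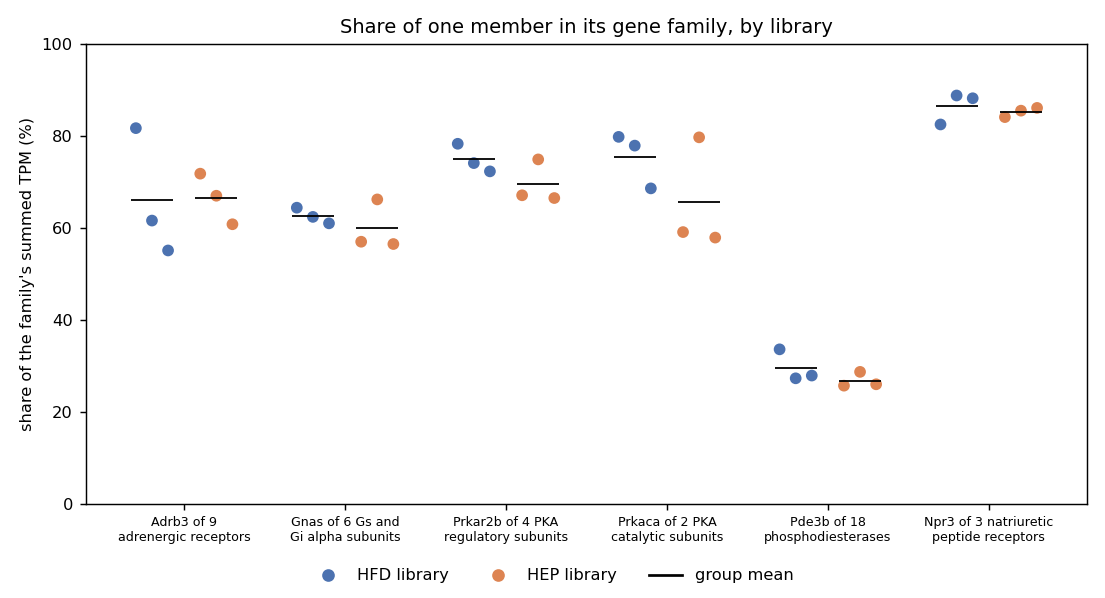
Share, in percent, of 1 member in the summed TPM of its gene family for each HFD and HEP library, with group means as lines. Prkaca stands at 57.9% and 59.1% in 2 HEP libraries and at 79.7% in the third, while Npr3 stays between 82.5% and 88.8%.

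Of 136 other genes of these pathways, in 10 lists, 135 were in the table and 110 were tested, and 0 passed in limma. Together 46 had a fold change above 0 and 64 below, with a median of -0.05, where 41.4% of all tested genes were below 0. An unadjusted limma p under 0.05 was found for 4 of the 110, and for 1.81% of all tested genes. The HEP values lay wholly above HFD for 2 and wholly below for 7, where 1.88% and 3.58% of all tested genes did so, 5.46% together. Named below are genes with the smallest p and the highest level of each list, and their adjusted limma p-values were 0.879 to 0.941.

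Among the other adrenergic receptors, 1 of 3 tested genes had a fold change above 0 and 2 below. Adra1a, an alpha-1 receptor gene, had 8.19, 8.24 and 5.97 TPM on the high-fat diet alone and 4.41, 6.13 and 4.78 TPM with hesperidin. Among other receptors that act through the stimulatory or inhibitory G protein, 10 of 13 tested genes were below 0, with a median of -0.29. The thyrotropin receptor gene Tshr had 49.0 ± 10.1 TPM on the high-fat diet alone and 32.6 ± 6.75 TPM with hesperidin (mean ± SD, n = 3). The adenosine receptor gene Adora1 had 31.7 ± 4.53 and 24.7 ± 3.96 TPM, the succinate receptor gene Sucnr1 82.7 ± 9.95 and 65.2 ± 18.2 TPM, and the short-chain fatty acid receptor gene Ffar2 79.8 ± 24.8 and 64.4 ± 17.0 TPM. In each of these 4 the groups overlapped.

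Of G protein subunits and desensitisation genes 10 of 18 were above 0, with a median of 0.08. Gnai2, an inhibitory alpha subunit, had 262 ± 36.9 TPM on the high-fat diet alone and 286 ± 49.2 TPM with hesperidin, and the gamma subunit gene Gng5 had 221 ± 29.2 and 209.6 ± 57.0 TPM. Grk5, a receptor kinase, had 15.7, 18.1 and 14.8 TPM on the high-fat diet alone and 12.9, 12.5 and 13.7 TPM with hesperidin, without overlap, and so did Gnao1, with 5.14, 6.52 and 6.19 TPM and 3.80, 4.84 and 3.38 TPM. Of the adenylyl cyclases 4 of 6 tested genes were below 0. Adcy5 and Adcy6 together held 56.8% to 75.2% of the family's TPM. Adcy6 had 55.9 ± 3.53 and 46.7 ± 7.11 TPM, Adcy5 33.1 ± 7.98 and 30.3 ± 8.16 TPM and Adcy3 14.4 ± 1.33 and 12.3 ± 2.57 TPM. Adcy7, a form found in blood cells, held 11.5% to 21.3% in the libraries rich in lymphocyte markers and 2.51% to 5.01% in the rest. It was chosen after its values were seen.

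Among other protein kinase A subunits, inhibitors and anchors 11 of 17 were above 0, with a median of 0.19. Pkig, an inhibitor of the kinase, had 28.4, 43.4 and 46.8 TPM on the high-fat diet alone and 59.9, 51.4 and 49.1 TPM with hesperidin, without overlap. Pkib, another inhibitor, had 1.89, 1.77 and 4.54 TPM and 10.96, 2.09 and 9.86 TPM, high in the libraries rich in lymphocyte markers. Prkar1a, the widely expressed regulatory subunit, had 137 ± 14.3 and 142 ± 16.7 TPM, and the anchor gene Akap8 35.2 ± 10.3 and 58.2 ± 34.2 TPM. Of the other phosphodiesterases 10 of 16 were below 0, with a median of -0.06. Pde8a had 15.4 ± 1.46 TPM on the high-fat diet alone and 12.6 ± 1.06 TPM with hesperidin, without overlap. Pde4d had 5.69 ± 1.22 and 8.34 ± 1.72 TPM, Pde2a 63.1 ± 5.45 and 59.8 ± 6.18 TPM and Pde7a 32.1 ± 4.10 and 35.5 ± 10.2 TPM, all with overlap.

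RNA of the natriuretic peptides and of the noradrenaline synthesis genes Th and Dbh was at or near 0 in this tissue, and noradrenaline itself was not measured. Nppb, the gene for B-type natriuretic peptide, was listed at 0 in all 6 libraries, Nppa, the atrial peptide gene, at 0 in 5 and at 0.10 TPM in HEP replicate 1, and Nppc at 0 in 5 and at 0.29 TPM in HEP replicate 2. Th and Dbh, which encode enzymes of noradrenaline synthesis, were listed at 0 in all 6. The cell bodies of sympathetic nerves lie in ganglia outside the fat. Of the other natriuretic peptide and cyclic GMP genes 5 of 7 tested were below 0, with a median of -0.03. Mme, the protease neprilysin that degrades natriuretic peptides, had 44.7, 49.8 and 41.0 TPM on the high-fat diet alone and 33.04, 38.1 and 37.0 TPM with hesperidin, without overlap, and a log2 fold change of -0.32 ± 0.14 (SE). Ece1, the endothelin-converting enzyme, had 74.1 ± 34.4 and 53.9 ± 10.3 TPM.

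All 8 genes of protein kinase A lipolysis targets and their partners had a fold change below 0 on TPM as deposited, with a median of -0.39, where 41.4% of all tested genes were below 0. The median was -0.63 without HEP replicate 2, -0.18 without HEP replicate 3 and 0.08 after scaling to the fat cell markers, where that of all genes was 0.48. Of these genes 3, Plin1, Lipe and Cidec, also belong to the fat cell markers. Mgll, the monoacylglycerol lipase of the last lipolytic step, had 483, 551 and 470.0 TPM on the high-fat diet alone and 318, 415 and 293 TPM with hesperidin, without overlap. Plin1, the droplet protein that the kinase phosphorylates, had 888 ± 139 and 660.1 ± 211 TPM. The triglyceride lipase gene Pnpla2 had 1010.0 ± 139 and 976 ± 307 TPM and Cidec 2259 ± 443 and 1771 ± 555 TPM, with overlap. Of 16 tested cyclic AMP transcription factors and induced genes 9 were above 0, with a median of 0.11. An unadjusted limma p under 0.05 was found for 2 of them, in opposite directions, and for 1.81% of all tested genes. Nr4a1, an orphan nuclear receptor that cyclic AMP induces, had 3.74, 5.78 and 8.64 TPM on the high-fat diet alone and 9.62, 13.1 and 10.8 TPM with hesperidin. Fos, an immediate early gene, had 33.6, 32.6 and 22.9 TPM on the high-fat diet alone and 17.0, 22.5 and 17.9 TPM with hesperidin. Neither overlapped between the groups, and their log2 fold changes were 0.84 ± 0.30 and -0.60 ± 0.21 (SE). Pck1, the glyceroneogenic enzyme, had 1039 ± 281 and 793 ± 257 TPM.

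Several genes that take up or break down catecholamines were expressed. The uptake transporter gene Slc22a3 had 45.6 ± 5.34 TPM on the high-fat diet alone and 40.7 ± 15.2 TPM with hesperidin. Maoa, a monoamine oxidase, had 18.5 ± 3.93 and 13.1 ± 3.10 TPM. Ddc, the decarboxylase, belongs to synthesis and was low, at 0.763 ± 0.158 and 1.33 ± 0.759 TPM. Of the 6 tested genes of this list 4 were below 0, with a median of -0.21, and all 6 overlapped between the groups.

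To show the regulatory sequence of members that were low in the 2 libraries lowest in fat cell markers, the 250 bases before a RefSeq start site are printed for 4 of them, Adrb1, Prkaca, Prkar2b and Npr3. They are from RefSeq on GRCm38.p6, 5′ to 3′ on the gene's strand. Capitals mark TGACG or its reverse complement CGTCA, the core of the cyclic AMP response element to which CREB binds.
Adrb1, chr19:56721867-56722116, plus strand: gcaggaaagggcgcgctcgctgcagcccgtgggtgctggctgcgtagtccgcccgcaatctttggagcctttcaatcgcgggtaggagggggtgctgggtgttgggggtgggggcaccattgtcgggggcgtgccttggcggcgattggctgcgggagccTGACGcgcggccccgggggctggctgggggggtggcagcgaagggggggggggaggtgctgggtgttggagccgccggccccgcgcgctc
Prkaca, chr8:83972728-83972977, plus strand: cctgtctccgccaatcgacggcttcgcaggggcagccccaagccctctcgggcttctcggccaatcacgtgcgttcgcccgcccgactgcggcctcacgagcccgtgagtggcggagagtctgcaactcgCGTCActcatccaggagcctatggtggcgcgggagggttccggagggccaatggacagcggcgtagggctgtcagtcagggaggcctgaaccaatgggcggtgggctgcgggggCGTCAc
Prkar2b, chr12:32061278-32061527, minus strand: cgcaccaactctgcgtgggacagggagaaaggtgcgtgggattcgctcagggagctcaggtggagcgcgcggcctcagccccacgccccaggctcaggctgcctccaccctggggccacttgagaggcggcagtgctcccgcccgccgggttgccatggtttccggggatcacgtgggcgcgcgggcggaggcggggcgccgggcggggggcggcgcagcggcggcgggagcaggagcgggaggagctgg
Npr3, chr15:11907372-11907621, minus strand: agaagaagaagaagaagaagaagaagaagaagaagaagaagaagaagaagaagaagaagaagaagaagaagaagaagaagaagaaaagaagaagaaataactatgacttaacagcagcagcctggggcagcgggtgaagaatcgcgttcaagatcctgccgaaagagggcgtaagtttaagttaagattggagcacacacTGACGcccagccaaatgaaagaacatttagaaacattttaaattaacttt
Of the 9 members 7 had an entry, with 12 start sites in all; Adrb3 and Pde3b had none. Counted on both strands, the core was found in 7 of these 12 windows, belonging to Adra2a, Adrb1, Gnas, Npr3 and Prkaca, against 17.8% of 32851 windows of all genes. Positions are those of the core's first base, counted back from the start site. In the printed windows it lay at 90 in Adrb1, at 120 and 6 in Prkaca and at 50 in Npr3. The Prkar2b window printed holds no core. Prkaca and Prkar2b each have another start site, not printed, whose window holds no core. The windows of 1 gene can overlap, as 2 of Gnas do and share 1 site. The whole element TGACGTCA, which contains the core, was in 0 of 12 windows and in 1.55% of all. The core holds a CG pair, and the printed windows of Adrb1, Prkaca and Prkar2b held 24, 25 and 28 CG pairs where the median of all windows was 6, while that of Npr3 held 6 and opens with a repeat of aag. The GC box GGGCGG, a site of SP1, was in 7 of 12 windows against 32.7% of all, 4 times in the printed window of Prkar2b. These matches describe the letters of the windows and were not tested for use in this tissue.

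The genes most like 3 of the receptors in their course over the 6 libraries were found among 11015 other genes of 5 TPM or more on average, by the smallest mean absolute difference of centred log2(TPM + 1). For Adrb3 these were 2900052L18Rik at 0.116, Sec61a2 at 0.142 and Hoxb3os at 0.150. Sec61a2, a subunit of the protein channel of the endoplasmic reticulum, had 25.9, 10.9 and 9.89 TPM on the high-fat diet alone and 21.02, 12.6 and 7.62 TPM with hesperidin, high in replicate 1 of both groups like Adrb3. For Npr1 they were Inppl1 at 0.055, Cc2d2a at 0.059 and Insr, the insulin receptor gene, at 0.061, the last with 27.9, 27.6 and 19.7 TPM on the high-fat diet alone and 28.9, 24.0 and 20.2 TPM with hesperidin. For Npr3 they included Inpp5a at 0.031 and Tbcb at 0.035. With 6 points these likenesses are descriptions with no test, and the points share their libraries' cell content.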

How the data were processed

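RNA was sequenced from 3 HFD and 3 HEP samples, all with batch label 1. Per the labels' protocols, extraction used TRIzol and library preparation a TruSeq kit; the kit's handling of strand is not given in the sources used here. The authors deposited TPM per gene and sample, with their own group means. DESeq2, StringTie, RSEM, HISAT2 and fastp are listed per the submitters' processing notes, with no version or role, and the build is not given in the sources used here. TPM falls for all other genes when abundant transcripts rise in a library, and how reads of overlapping genes were shared out is not stated in the labels.

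Samples were grouped by title. Genes averaging 1 TPM or more were tested on log2(TPM + 1) by limma 3.58.1 under R 4.3.3, with the variance prior trended on level and Benjamini-Hochberg adjustment over all 15446 genes, two-sided. A fold change on this scale understates that of low genes. SE and 95% intervals are limma's. Ratios used exact permutation tests. The limma fit was tested on simulated data whose noise was independent between genes. The real libraries share cell content, so that test does not vouch for the fit on them. The members, lists and tests were chosen with earlier results of these data known. The genes named were all members, the 2 with the smallest p and the 2 with the highest mean of each pathway list, and the 3 nearest profiles of 3 receptors; a few genes this rule names are not reported here. All 9 member IDs were found in GENCODE M21, used only for overlaps. One listed gene, Akap2, was not found under that name. Other pseudocounts, filters, scalings, covariates and left-out libraries were tried.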

Additional observations from a re-analysis of the deposited data

How the results depend on the processing

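None of the 21 alternatives called a member or, where run, a gene of the other pathway lists, and the adjusted limma p of the members ranged from 0.120 to 1.00. Over all genes, 1 was called without HEP replicate 2, the small nuclear RNA gene Gm25541 (0 in the other runs that left out 1 library), and 36 within the 3 libraries rich in lymphocyte markers, where HFD replicate 3 alone stands for its group and is assumed to vary like the others. That run, the one within the 3 libraries low in these markers, where HEP replicate 2 stands alone in the same way, and the one without both libraries highest in liver markers were chosen after seeing the data. Of 167 fold changes of members, 20 had the other sign. With adipocyte scaling these were Adrb3 at 0.42, Npr1 at 0.35, Gnas and Pde3b at 0.29, Prkaca at 0.17, Prkar2b at 0.13 and Npr3 at 0.11, and the members' median was 0.23, where scaling shifted all genes by 0.41. With the lymphoid covariate Adrb3 was at 0.15 and Npr1 at 0.02, and with lymphoid and muscle covariates Adrb3 was at 0.25. Within the rich libraries Adrb3 was at 0.67, Npr1 at 0.29 and Pde3b at 0.03, within the low libraries Gnas was at 0.05, and without both libraries highest in liver markers Adrb3 was at 0.48 and Npr1 at 0.03. Leaving out 1 library moved Adrb3 between -0.38 and 0.47 and Npr1 between -0.31 and 0.05, and turned the sign without HFD replicate 1 or HEP replicate 3. The log2 ratios were compared as HEP mean minus HFD mean. Leaving out 1 library moved this difference between -1.22 and 0.66 for Adrb3 to Adra2a and between -0.08 and 0.03 for Prkar2b to Prkaca. It moved between 0.17 and 1.05 for Adrb3 to Adrb1 and between 0.11 and 0.49 for Npr1 to Npr3. Without both libraries highest in liver markers these differences were 0.38, 0.09, 1.29 and 0.58, in that order. The other 6 tested members kept their sign whichever library was left out, but their size moved: Gnas from -0.32 to -0.07, Pde3b from -0.26 to -0.07, Npr3 from -0.46 to -0.18, Prkaca from -0.46 to -0.19, Prkar2b from -0.44 to -0.24, Adrb1 from -0.56 to -0.32 and the members' median from -0.38 to -0.16. Of 100 medians of the other lists under alternatives, 10 moved beyond the spread, all with adipocyte scaling. That scaling shifted the median of all tested genes by 0.41, so these moves are not particular to the lists. With the replicate number as a block, 0 genes were called. Same-numbered samples had correlations of -0.35, 0.37 and 0.65 in their deviations, and HFD replicates 1 and 2 both correlated best with HEP replicate 2. These correlations differ in sign and cannot show whether same-numbered samples were paired. The cause of these changes was not tested. Depth was unknown, and the width of the 95% intervals, up to 1.12 above 0 for Adrb3, limits what 3 samples a group can show.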
